A study of Mus musculus with 30 samples.

Results

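The thyroid hormone pathway was followed in mouse neurospheres through 9 genes: the receptors Thra and Thrb, their partners Rxra, Rxrb and Rxrg, the coregulators Hr, Ncor1 and Ncoa3, and the hormone target Klf9. Their probe sets were found by exact gene symbol in the annotation of the Affymetrix arrays MOE430A and MOE430B. This gave 20 probe sets (17 on MOE430A and 3 on MOE430B) for 8 of the 9 genes, out of 18193 genes that have a probe set with 1 symbol. Ncor1 was not analysed here, since no probe set carried its symbol alone. The genes were selected on signal differences already known from these same samples, and which of the 3 comparisons guided the choice is not recorded. All 3 comparisons of the 9 genes are therefore given as descriptions, with no p-value, and limma calls among them are only counted beside those of all probe sets.

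Neurospheres are floating clusters of dividing neural precursors, and all of these were started at embryonic day 14. Culture lasted 7 days in DMEM:F12 N2 medium supplemented with 2% B27. The PDGF group (6 RNA samples) came from the anterior entopeduncular area and received PDGF-AA at 100 ng/ml. The NT-3 group (3 RNA samples) came from the same area and received PDGF-AA and neurotrophin-3, each labelled as 100 ng/ul, and whether that unit is meant could not be settled. RNA was labelled at 192, 287 and 171 ng/ul in the NT-3 samples and at 100 ng/ul in all others, a difference that cannot be told apart from NT-3. The EGF group (6 RNA samples) was taken from medial plus lateral ganglionic eminence and was isolated by its growth in EGF, although its growth protocol names PDGF-AA. Growth factor and brain region thus differ together between EGF and PDGF and cannot be told apart. B27 is a supplement known to contain triiodothyronine, and every group carried it. No hormone was added or withdrawn as a treatment, and the labels give no strain, genotype or sex. They also do not say whether RNA samples came from separate cultures. The errors below therefore rest on the spread between RNA samples, not between cultures known to be separate.

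Thyroid hormone enters cells through transporters, is converted from thyroxine to triiodothyronine by the deiodinase Dio2, and acts through the nuclear receptors encoded by Thra and Thrb. These receptors bind DNA mostly as pairs with an RXR receptor. Without hormone they hold corepressors such as Ncor1 with the deacetylase Hdac3, and hormone binding exchanges these for coactivators such as Ncoa3. In the oligodendrocyte lineage, triiodothyronine is known for promoting the exit of progenitors from division and the expression of myelin genes.

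Each RNA sample was hybridised to both arrays, whose deposited values are MAS5 signals on a linear scale. A signal of 52.0 on MOE430A and of 115 on MOE430B, the 10th percentile of each chip, was added before taking log2, so fold changes of dim probe sets are understated. A probe set was kept for the comparisons when 3 or more of its 15 signals reached the median of their array, and 14 of the 20 member probe sets did. Differences are log2 values ± SE from a limma fit with 12 residual degrees of freedom, and signals are mean ± SD. All groups share the same estimate of a probe set's spread, which limma moderates by a trend over all kept probe sets. Where the NT-3 samples vary more than the other groups, the SE therefore understates their spread. Probe sets differ in hybridisation, so levels are compared between samples and never between probe sets. No label names a run. Fluidics runs, also called hybridisation runs below, were inferred from arrays that shared protocol, station and day and had close hybridisation times. By this rule EGF and PDGF arrays shared 3 fluidics runs, with 2 samples of each group in each. The NT-3 arrays shared 0 runs with the others, so the addition of NT-3 and its hybridisation runs cannot be told apart in any value below. NT-3 replicates 1 and 2 shared a run, and replicate 3 was hybridised in another. A departure of replicate 3 from the other NT-3 samples therefore cannot be told apart from its run.

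Hr was much dimmer with NT-3 on 1 of its 2 probe sets. It encodes hairless, a nuclear corepressor that binds thyroid hormone receptors and is itself a hormone target in rodent brain. Its brighter probe set, 1435950_at, read 1790 at the lowest, 2054 at the median and 2759 at the highest in the PDGF samples. The EGF samples overlapped that range, from 1518 through a median of 2250 to 2690. The 3 NT-3 samples read 417, 121 and 45.8. All 3 lay below every sample of the other groups, and 1 of them lay below the added pseudocount.

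Hr means were 2231 ± 413 (SD, n = 6) with PDGF, 2214 ± 384 (n = 6) with EGF and 195 ± 197 (n = 3) with NT-3. The EGF minus PDGF difference of this probe set was -0.01 ± 0.29, and -0.37, 0.09 and 0.25 within the 3 fluidics runs. The NT-3 minus PDGF difference was -3.50 ± 0.35 on the scale with pseudocount, -4.04 with a pseudocount of 1 and -2.85 with the chip's 25th percentile. Leaving out 1 sample at a time moved it between -4.11, without NT-3 replicate 1, and -2.98, without NT-3 replicate 3. On this probe set the order of Hr levels was therefore PDGF and EGF together, with a difference well inside its error, and NT-3 below them.

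The other Hr probe set, 1422110_at, was dimmer and did not separate the groups. It read 413 to 799 with PDGF and 408 to 600 with EGF, and 98.0, 336 and 556 with NT-3. NT-3 replicates 1 and 2 lay below the samples of the other groups and replicate 3 among them, while on 1435950_at replicate 3 was the lowest. Here NT-3 minus PDGF was -1.04 ± 0.39, and -1.49 to -0.48 with 1 sample left out. Both Hr probe sets had the same sign in that comparison. EGF minus PDGF was -0.35 ± 0.32 on 1422110_at, and -0.22, -0.57 and -0.27 within the fluidics runs.

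Klf9 encodes a Krüppel-like zinc-finger repressor that is directly induced by triiodothyronine in rodent brain and takes part in oligodendrocyte differentiation and remyelination. Its start region is shown because Klf9 had more probe sets (7) than the other 7 genes measured. The window is chr19:23140976-23141275 of GRCm38.p6, plus strand, 250 bases before to 50 after the annotated start, from RefSeq, with capitals on the CACCC box that Krüppel-like factors bind.
Klf9: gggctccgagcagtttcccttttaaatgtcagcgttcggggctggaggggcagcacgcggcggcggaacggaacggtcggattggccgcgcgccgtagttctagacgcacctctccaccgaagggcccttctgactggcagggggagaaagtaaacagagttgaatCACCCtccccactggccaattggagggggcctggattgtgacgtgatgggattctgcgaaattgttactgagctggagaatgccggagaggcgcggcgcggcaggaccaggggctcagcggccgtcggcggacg
CACCC stands once in it, at position 167 from the window's 5′ end on the plus strand, and 57.5% of all 32851 RefSeq start windows of this length hold a CACCC on either strand. The receptor half-site AGGTCA and a direct repeat of AGGTCA with 4 bases between the copies were searched on both strands and are not in this window. They stand in 16.3% and 0.0152% of all windows.

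The 3 Klf9 probe sets that were kept read alike. On 1428289_at the PDGF samples read 7129 at the lowest, 8258 at the median and 11108 at the highest. The EGF samples read 10495, 12121 and 14666 by the same measures, and the 3 NT-3 samples 1538, 1255 and 1383. EGF samples lay mostly above the PDGF samples with some overlap, and the NT-3 samples lay far below both. The EGF minus PDGF difference was 0.48 ± 0.13, positive in each fluidics run (0.29, 0.48 and 0.68). The NT-3 minus PDGF difference was -2.61 ± 0.16, a 6.09-fold lower level, and EGF exceeded NT-3 by 3.09 ± 0.16, or 8.52-fold.

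On 1456341_a_at, the brightest of the Klf9 probe sets, the PDGF samples read from 10445 through a median of 12000 to 15050, and the EGF samples from 14572 through 17056 to 20300. The NT-3 samples read 4107, 3442 and 1295. The EGF minus PDGF difference was 0.47 ± 0.20 and the NT-3 minus PDGF difference -2.20 ± 0.25, rank 77 from the lowest of 13882 genes. That rank is only a description, since Klf9 was chosen with results of these samples known. The third probe set, 1428288_at, gave 0.20 ± 0.15 and -2.05 ± 0.19, from NT-3 signals of 638, 1166 and 667 against 2757 to 4338 with PDGF. On all 3 probe sets every NT-3 sample lay below every PDGF and EGF sample, and no Klf9 probe set separated EGF from PDGF completely.

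The other 4 Klf9 probe sets were not kept. Their signals lay between 10.9 and 689 over all samples, with overlapping groups. Of these, 1436952_at read higher with NT-3 (481 ± 303, n = 3) than with PDGF (196 ± 169, n = 6), opposite to the 3 bright probe sets, while the other 3 read lower.

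**Figure D1:**
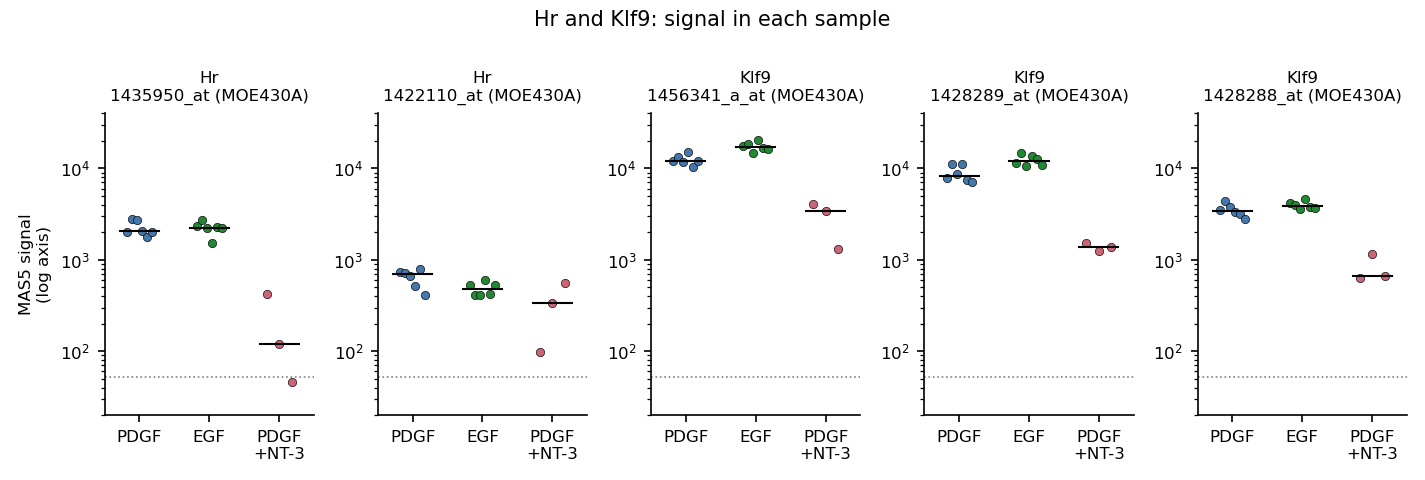
Signals of the kept Hr and Klf9 probe sets, 1 point per RNA sample, on a log axis shared by the panels, with a bar at each group's median (PDGF and EGF n = 6, PDGF with NT-3 n = 3). The dotted line marks the pseudocount of MOE430A (52.0). On Hr 1435950_at and all 3 Klf9 probe sets the NT-3 samples lie below every other sample.

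The genes whose profiles over the 15 samples lay nearest to those of Hr and Klf9 were picked by the smallest root mean square difference of centred log2 signals. Nearest to Hr were Zfp397 (0.52), Dhx58 (0.56), the myelin gene Mag (0.57), Klf9 itself (0.58) and Dusp13 (0.59), where the median over all genes was 1.51. Nearest to Klf9 were Cplx2 (0.33), Dhx58 (0.38), Arap1, Irf5 and Rab38 (0.40 each), against a median of 1.13. Each of these was lower with NT-3 than with PDGF, with log2 differences from -1.51 (Rab38) to -2.80 (Mag). Picking genes near profiles with a large NT-3 step all but fixed that direction. The 15 samples form 3 groups, so these profiles share the steps between groups and are not 15 independent points.

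Thra encodes the receptor that predominates in brain. Its brightest probe set, 1454675_at, read 10743 at the lowest, 11523 at the median and 12058 at the highest with PDGF. With EGF it read 7274, 8316 and 8758, and with NT-3 6844, 9426 and 5314. All PDGF samples lay above all samples of both other groups, which overlapped each other. The EGF minus PDGF difference was -0.49 ± 0.11, with -0.57, -0.37 and -0.52 within the fluidics runs. The NT-3 minus PDGF difference was -0.71 ± 0.14, a 1.63-fold lower level, and EGF minus NT-3 was 0.22 ± 0.14. The PDGF group varied little around its mean of 11465 ± 500 (n = 6), while the NT-3 group varied more (7195 ± 2078, n = 3).

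The other Thra probe sets did not all follow. On 1426997_at the differences had the same signs but overlapping groups, at -0.33 ± 0.23 for EGF minus PDGF and -0.44 ± 0.28 for NT-3 minus PDGF (-0.77 to -0.17 with 1 sample left out), from signals of 966 to 1448 with PDGF. On 1443952_at, the probe set on MOE430B, the NT-3 samples read 2890, 2878 and 3771 against 1112 to 3444 with PDGF and 525 to 2733 with EGF. That probe set was thus higher with NT-3 than with every EGF sample, and its NT-3 minus PDGF difference of 0.69 ± 0.44 had the opposite sign. Thra makes several transcript forms, and which form each probe set reads was not analysed here.

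Thrb encodes the second receptor and is known as a hormone-induced gene in some rodent tissues. The first of its start windows in RefSeq is shown because it holds a receptor half-site in capitals (AGGTCA, at position 67 from the 5′ end on the plus strand). It lies at chr14:17660710-17661009 of GRCm38.p6, plus strand.
Thrb: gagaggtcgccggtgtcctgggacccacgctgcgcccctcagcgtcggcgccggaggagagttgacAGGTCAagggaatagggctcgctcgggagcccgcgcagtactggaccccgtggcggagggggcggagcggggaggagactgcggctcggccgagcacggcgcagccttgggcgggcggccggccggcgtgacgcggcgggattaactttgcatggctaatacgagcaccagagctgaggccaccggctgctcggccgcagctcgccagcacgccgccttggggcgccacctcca
The second Thrb window holds no AGGTCA. Over the 5 members with windows in that table, 3 of 9 windows hold the half-site and 0 hold the spaced repeat, which describes letters and not binding. The single Thrb probe set, 1422202_at, read 470 at the lowest, 626 at the median and 1341 at the highest with PDGF. It read 593, 689 and 856 with EGF, and 574, 302 and 353 with NT-3. EGF and PDGF differed by -0.05 ± 0.29, far inside the error, and by -0.24, -0.31 and 0.39 within runs. NT-3 minus PDGF came to -0.78 ± 0.35 with overlap, whereas all NT-3 samples lay just below all EGF samples (EGF minus NT-3 0.73 ± 0.35).

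The RXR genes encode the shared partners of many nuclear receptors. Rxra was read by 2 kept probe sets that moved in opposite directions with NT-3. On 1425762_a_at the PDGF samples read 676 to 1779 (median 1029) and the EGF samples 731 to 1568 (median 1012). The NT-3 samples read 105, 89.9 and 966. NT-3 replicates 1 and 2 lay far below all other samples, while replicate 3 lay among them. The NT-3 minus PDGF difference of -2.04 ± 0.50 became -2.96 without replicate 3, -1.62 without replicate 1 and -1.54 without replicate 2, so its size rests on which NT-3 sample is included.

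On the second Rxra probe set, 1454773_at, the NT-3 samples read 934, 1129 and 1547, against 202 to 1010 with PDGF (median 749) and 514 to 1286 with EGF (median 622). Its NT-3 minus PDGF difference was 0.83 ± 0.42 with overlap, and 0.54 to 0.99 with 1 sample left out. No direction can therefore be given for Rxra as a gene. EGF minus PDGF was close to 0 on both, at -0.10 ± 0.41 and 0.13 ± 0.34, though within runs the second ranged from -0.62 to 1.10. The third Rxra probe set, 1430497_at, was not kept and overlapped between all groups (97 to 1438).

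Rxrb was read by 1416990_at, at 988 to 2453 with PDGF (median 1447), 640 to 1627 with EGF (median 1338), and 1558, 2743 and 2033 with NT-3. NT-3 replicate 2 lay above every PDGF sample and the other 2 among them, with a difference of 0.48 ± 0.31 (0.27 to 0.67 with 1 sample left out). EGF minus PDGF was -0.23 ± 0.26, and -0.31, 0.25 and -0.62 within runs. Rxrg, which is known from the oligodendrocyte lineage as a factor in remyelination, was dim. Its probe set 1418782_at read 52.1 to 610 with PDGF, 92.7 to 328 with EGF, and 31.9, 821 and 518 with NT-3, and it was not kept. No order of the groups can be read from signals that spread this widely within them.

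Ncoa3 encodes a p160 coactivator that binds hormone-loaded receptors. Its 2 probe sets disagreed. On 1422737_at the PDGF samples read 611 at the lowest, 886 at the median and 1601 at the highest. The EGF samples read 622, 950 and 1105, and the NT-3 samples 37.8, 81.2 and 43.2. All NT-3 samples lay far below all others, and 2 of the 3 lay below the pseudocount. The NT-3 minus PDGF difference was -3.22 ± 0.33 on the scale with pseudocount. Its size is set by that constant, at -4.15 with a pseudocount of 1 and -2.32 with the 25th percentile of the chip.

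On 1448027_at, the Ncoa3 probe set of MOE430B, the PDGF samples read 2336 to 4144 (median 2706) and the EGF samples 1750 to 2953 (median 1944). The NT-3 samples read 2449, 2502 and 2371, inside both ranges. For NT-3 minus PDGF it gave -0.24 ± 0.20, and EGF minus PDGF was -0.39 ± 0.17. A loss of Ncoa3 RNA as a whole therefore cannot be read from these arrays. On 1 of its 2 probe sets the NT-3 samples lay inside the ranges of both other groups.

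**Figure D2:**
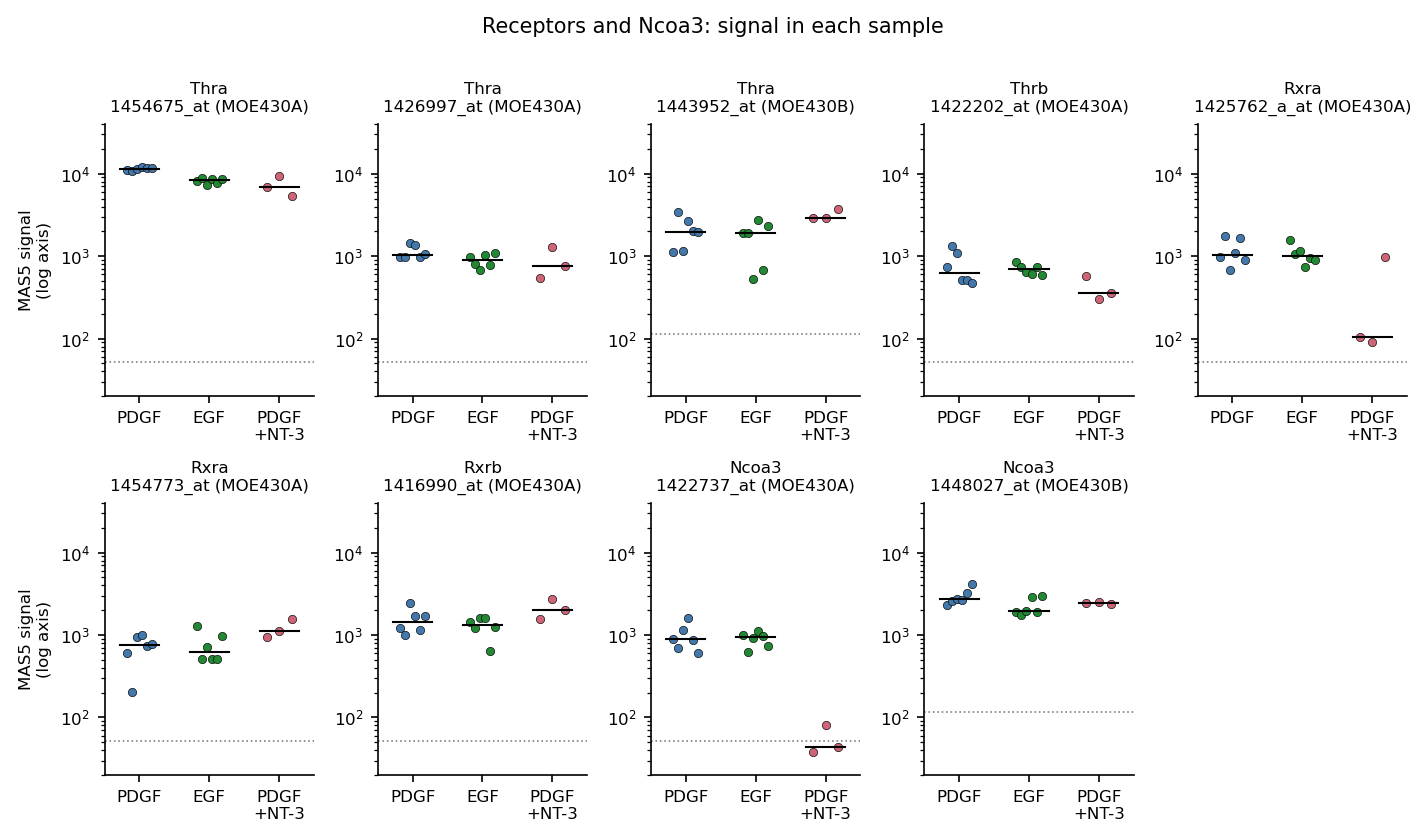
Signals of the kept Thra, Thrb, Rxra, Rxrb and Ncoa3 probe sets, 1 point per RNA sample, on a shared log axis, with a bar at each group's median and a dotted line at the pseudocount of the chip. Thra 1454675_at is highest in the 6 PDGF samples, and the pairs of probe sets for Rxra and Ncoa3 place the NT-3 samples differently.

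For EGF against PDGF, past the limma threshold (adjusted p under 0.05 over all 23595 probe sets) were 2 of 14, Klf9 1428289_at higher and Thra 1454675_at lower with EGF, where 10.7% of all probe sets passed. Groups did not overlap for 1 of 14 (Thra 1454675_at), against 7.48% of all probe sets. The median difference was -0.09, and -0.03 over all probe sets.

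With NT-3 against PDGF, 7 of 14 passed, all lower, where 19.1% of all probe sets passed. They were Hr 1435950_at, the 3 Klf9 probe sets, Thra 1454675_at, Rxra 1425762_a_at and Ncoa3 1422737_at. Groups did not overlap for 6 of these, all but the Rxra probe set, against 18.8% of all probe sets. The median was -0.91, and -0.09 over all probe sets. In EGF against NT-3, 6 of 14 passed, all higher with EGF, against 20.2% of all probe sets. Groups did not overlap for 7 of 14, against 20.2% again. They shared 5 probe sets with those that passed and added Thrb, higher with EGF, and Thra 1443952_at, lower. The comparisons share groups and the genes were chosen with these differences in view, so nothing is read from the shares.

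**Figure D3:**
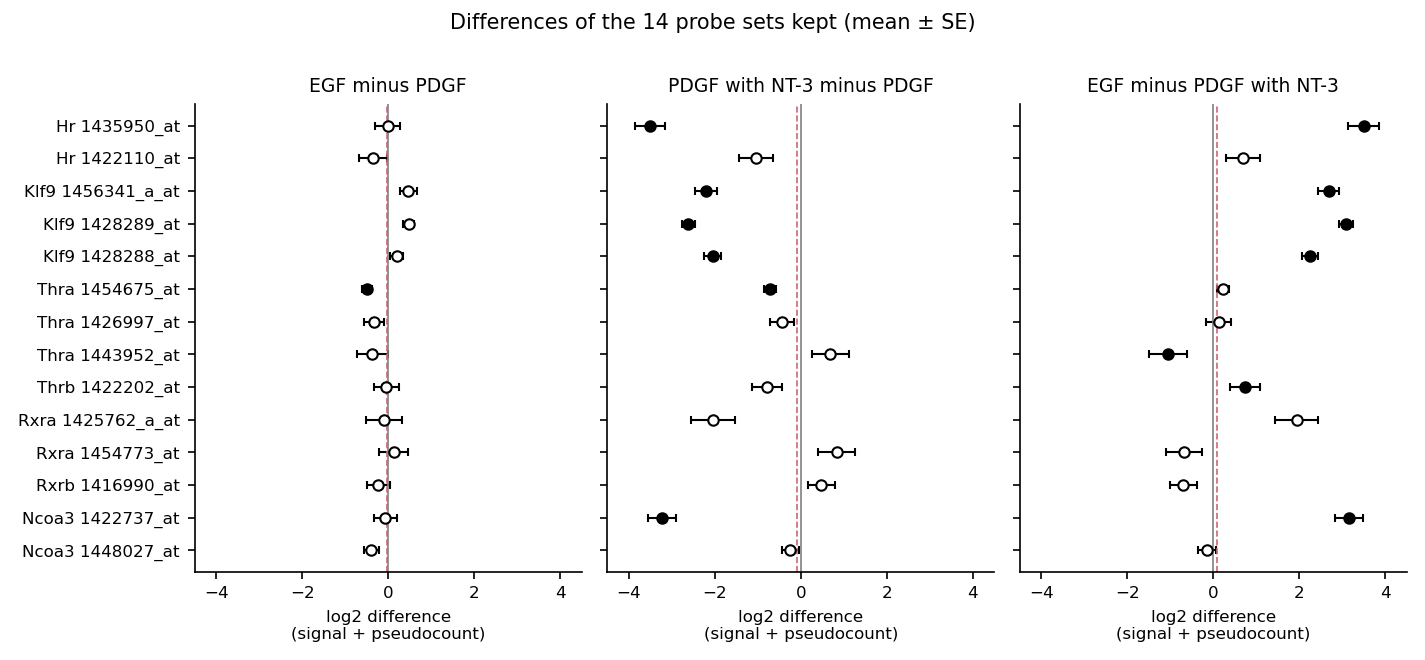
Log2 differences ± SE of the 14 kept probe sets in the 3 comparisons. Filled points have groups that do not overlap, the grey line is 0 and the dashed line is the median of all 23595 probe sets. Values from -0.49 to 0.48 for EGF minus PDGF stand beside values from -3.50 to 0.83 for NT-3 minus PDGF.

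Markers of cell types and states also differed between the groups, not all in the direction of these genes. Summed signals of 8 measured markers of differentiated oligodendrocytes (of 10 listed, Mbp and Mag among them) were 43211 to 77425 with PDGF, 47657 to 77606 with EGF and 14183 to 19275 with NT-3, and 5 of the 8 were past the threshold and lower with NT-3 than PDGF. No marker of this list was at 0, but 1 of 8 had a median under the pseudocount with NT-3. Progenitor markers summed to 109834 to 138082 with PDGF, 59608 to 80794 with EGF and 163334 to 192985 with NT-3, with 4 of 8 higher and 1 lower with NT-3 than PDGF. Pdgfra, which defines the PDGF-responsive progenitor, read 9476 to 12411 with PDGF, 729 to 1306 with EGF and 15881 to 23771 with NT-3. The 8 astrocyte markers summed to 5603 to 11296 with PDGF, 28243 to 42406 with EGF and 6804 to 7561 with NT-3. The 8 neuronal markers summed to 74954 to 118237, 29062 to 59123 and 42035 to 82103 in the same order. Past the threshold, 5 of these 8 were lower than with PDGF in EGF, and 5 in NT-3. Astrocyte markers had 5 higher and 1 lower with EGF than PDGF, and 1 higher and 1 lower with NT-3. With EGF, 6 progenitor markers were lower than with PDGF, and differentiated oligodendrocyte markers had 1 higher and 1 lower. Bright probe sets weigh most in these sums.

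Of the microglial and endothelial lists only Csf1r and Kdr were measured, and both were past the threshold and lower with NT-3. The ratio of 3′ to 5′ Actb control signals on MOE430A, a sign of RNA and labelling quality, was 6 to 9.61 with PDGF, 5.35 to 10.7 with EGF and 9.23 to 13.0 with NT-3. The Gapdh ratio there was 12.6 to 17.4, 12.3 to 16.2 and 11.5 to 20.8 in the same order. On MOE430B the Actb ratio was 7.39 to 10.5, 5.39 to 8.79 and 9.09 to 14.3, and the Gapdh ratio was 9.71 to 15.7, 11.1 to 14.1 and 17.2 to 18.4. NT-3 samples were thus above all others on 1 of these 4 ratios and above all EGF samples on a further 1. Arrays within a group correlated at 0.854 to 0.896 (PDGF), 0.860 to 0.884 (EGF) and 0.805 to 0.833 (NT-3). The part of these shifts in the lower Hr, Klf9, Thra and Ncoa3 signals was not tested, and in bulk RNA fewer cells of a type cannot be told apart from less RNA per cell.

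The rest of the pathway was read from 6 lists of 92 genes that hold none of the 9 genes, 65 of them with a kept probe set, at 1 probe set a gene. EGF and PDGF differed for 9 of the 65, 7 higher and 2 lower with EGF, or 13.8%, against 12.1% of all 13882 genes. NT-3 and PDGF differed for 14, 4 higher and 10 lower, or 21.5%, against 20.1%. EGF and NT-3 differed for 18, 11 higher and 7 lower, or 27.7%, against 21.4%. Adjusted p-values below are from limma with Benjamini-Hochberg adjustment over all probe sets. The lists, like the 9 genes, were chosen with earlier results of these data known. These shares and p-values therefore describe the samples and are not independent evidence.

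Hormone supply was listed with 12 genes, of which 5 were tested. In EGF against PDGF limma called 0 of them at 1 probe set a gene, and 0 had an unadjusted p under 0.05. Second probe sets of Dio2 and Slc16a10 gave 1.53 and -0.84 there, against -0.21 and 0.09 on the probe sets that represent these genes. With NT-3 against PDGF, Dio2, which makes triiodothyronine, fell by 1.54 ± 0.33 on the log2 scale, from 869 ± 230 (n = 6) to 273 ± 133 (n = 3) (adjusted p = 0.0044), yet a second Dio2 probe set gave 0.09. Slc16a10, an aromatic amino acid and thyroid hormone transporter, fell by 1.75 ± 0.37 (adjusted p = 0.00387), with 0.32 on its second probe set. Slc7a5, a transporter of large neutral amino acids that also carries thyroid hormone, rose by 0.79 ± 0.24 (adjusted p = 0.0276). That call was lost without PDGF replicate 3, NT-3 replicate 1 or NT-3 replicate 3 (adjusted p = 0.052, 0.0682 and 0.193). Dio2 and Slc16a10 were also lower with NT-3 than with EGF (adjusted p = 0.00925 and 0.00209), and the Dio2 call was lost without NT-3 replicate 1 (adjusted p = 0.0548). In that comparison, EGF minus NT-3, the second probe set of Dio2 gave 1.44 and that of Slc16a10 gave -1.16, the opposite direction. Dio1 and Slco1c1 were too dim to be kept, and Dio3 was not analysed here.

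Among 16 coactivator genes tested, 1 differed between EGF and PDGF and 3 between NT-3 and PDGF. Trip12, a ubiquitin ligase first found through its binding to thyroid hormone receptor, rose with NT-3 by 1.13 ± 0.21 (adjusted p = 0.00172) on 1 of 6 probe sets, while the other 5 gave -0.58 to 0.20. Trip4, a subunit of a transcriptional coactivator complex, was higher with EGF than PDGF by 0.71 ± 0.22 (adjusted p = 0.0424) and lower with NT-3 by 0.80 on the log2 scale (adjusted p = 0.0414). The EGF call was lost in 10 of 12 omissions of a single sample (adjusted p up to 0.0955), all but those of PDGF replicate 2 and EGF replicate 4. The NT-3 call was lost in 6 of 9 (adjusted p up to 0.268), all but those of PDGF replicate 5 and NT-3 replicates 1 and 2. For EGF minus NT-3, Trip4 gave 1.51 ± 0.26 (adjusted p = 0.000695), a call lost in 0 of 9 omissions, and its other probe sets gave 2.15 and 0.59. Ncoa1, a p160 coactivator like Ncoa3, fell by 0.43 ± 0.15 with NT-3 (adjusted p = 0.0498), a call lost in all 9 omissions (adjusted p = 0.0516 to 0.166), and its other 2 probe sets gave 0.51 and -0.20. Ncoa2, the remaining p160 gene, did not pass (0.02 ± 0.29 with NT-3).

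Among 11 corepressor complex genes tested, Tbl1xr1, a subunit of the Ncor1 complex, was higher with EGF than PDGF by 0.53 ± 0.12 (adjusted p = 0.00537), and its other 3 probe sets gave 0.40 to 0.57. Bcl6, a repressor that recruits the same complex, rose with NT-3 from 360 ± 191 (n = 6) to 1271 ± 276 (n = 3), by 1.80 ± 0.41 (adjusted p = 0.00611), with -0.87 on its second probe set. Hdac3, the deacetylase of the complex, did not pass, at -0.14 ± 0.14 for EGF minus PDGF and -0.11 ± 0.17 for NT-3 minus PDGF. Of 6 other RXR partners tested, limma called 0 between EGF and PDGF (1 at an unadjusted p under 0.05). Nr4a2, an orphan receptor of dopaminergic neurons, fell by 1.44 ± 0.42 with NT-3 (adjusted p = 0.025), a call lost without NT-3 replicate 2 (adjusted p = 0.0958) or NT-3 replicate 3 (adjusted p = 0.12). Its other 3 probe sets gave -0.43 to -0.03.

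Of 14 other hormone-responsive genes tested, 5 differed between EGF and PDGF (4 higher with EGF), 4 were lower with NT-3 than PDGF and 6 higher with EGF than NT-3. The list overlaps the oligodendrocyte markers above and is not independent of them. Mbp, the myelin basic protein gene, fell by 4.68 ± 0.24 with NT-3, from 21697 ± 6370 (n = 6) to 803 ± 284 (n = 3) (adjusted p = 7.11e-09), and 7 of its 8 probe sets had negative differences. Mag, a myelin adhesion protein, fell by 2.80 ± 0.30 (adjusted p = 1.81e-05) and Cnp, a myelin-associated enzyme, by 1.09 ± 0.20 (adjusted p = 0.00137). Reln, a neuronal extracellular protein, was lower than with PDGF both with NT-3 (by 1.62 on the log2 scale, adjusted p = 0.00322) and with EGF (by 1.21, adjusted p = 0.00642), but its second probe set gave 0.55 and 0.22.

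In EGF against PDGF, Mobp, a myelin gene, was higher by 3.36 ± 0.40 (adjusted p = 2.01e-05) from 90.3 ± 62.9 with PDGF, where 2 further probe sets gave 0.40 and -0.25. Kcnj10, a potassium channel of glia, was higher with EGF by 0.90 ± 0.15 (adjusted p = 0.000525), and Nrgn, a postsynaptic protein, by 1.60 ± 0.36 (adjusted p = 0.00691). Mbp read 25552 ± 4791 (n = 6) with EGF and overlapped the PDGF samples, as Hr did.

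In the family of Klf9, 13 other Klf genes were tested, and 2 passed in EGF against PDGF, 2 in NT-3 against PDGF and 1 in EGF against NT-3. Klf10, a TGF-beta-induced factor, was higher than with PDGF both with EGF (by 0.96 ± 0.18, adjusted p = 0.00157) and with NT-3 (by 0.76 ± 0.22, adjusted p = 0.0234). Klf11, its close relative, was lower with both, by 0.67 on the log2 scale with EGF (adjusted p = 0.00706) and by 0.63 with NT-3 (adjusted p = 0.0269). The NT-3 calls were lost without NT-3 replicate 2 (adjusted p = 0.089) or 3 (adjusted p = 0.0617) for Klf10, and without PDGF replicate 1 (adjusted p = 0.0539), NT-3 replicate 1 (adjusted p = 0.0676) or NT-3 replicate 3 (adjusted p = 0.156) for Klf11. The median NT-3 minus PDGF difference of the 13 was -0.19, against -0.13 over all genes and -2.20 for Klf9. Klf9 was chosen with results of these samples known, so nothing is read from its distance to the family.

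EGF against NT-3 added calls in several lists that neither comparison with PDGF showed. Ppard, a lipid-sensing receptor that pairs with RXR, was lower with EGF, at -1.13 ± 0.25 (adjusted p = 0.00427). Rarb, a retinoic acid receptor, was higher by 2.15 ± 0.55 (adjusted p = 0.0104), a call lost without NT-3 replicate 1 or 2 (adjusted p = 0.075 and 0.0594). The coactivators Crebbp and Ncoa7 were lower, at -0.87 ± 0.28 (adjusted p = 0.0344) and -1.50 ± 0.49 (adjusted p = 0.0385). Crebbp lost its call without EGF replicate 1 or 2 or NT-3 replicate 1 or 3 (adjusted p = 0.0628 to 0.131), and Ncoa7 without EGF replicate 6 or any NT-3 sample (adjusted p = 0.0609 to 0.122). Nr4a1, an immediate early orphan receptor, was lower at -0.75 ± 0.24 (adjusted p = 0.0371), a call lost without EGF replicate 1, 2, 3 or 6 or NT-3 replicate 2 or 3 (adjusted p = 0.0531 to 0.131). Klf12, a repressor of the Klf family, was lower at -0.62 ± 0.18 (adjusted p = 0.0244), a call lost without NT-3 replicate 1 (adjusted p = 0.189).

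**Figure D4:**
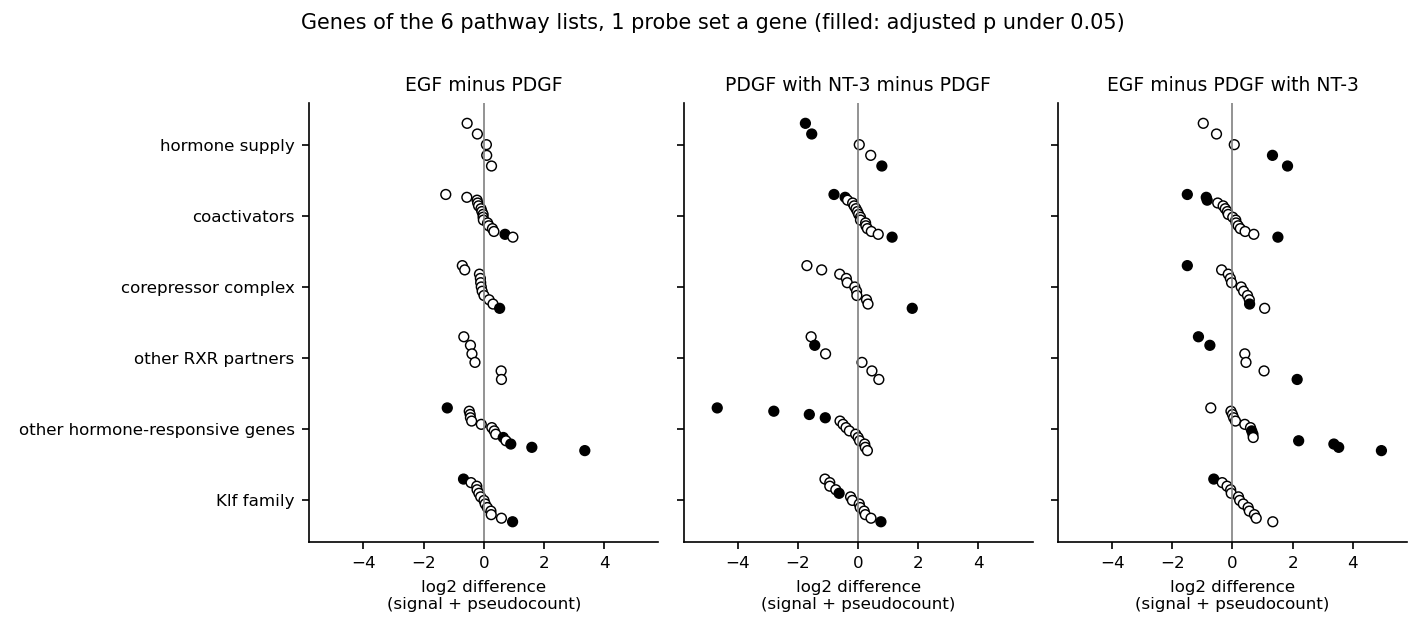
Log2 differences of the 65 tested genes of the 6 lists, 1 point a gene, spread vertically within a list by value. Filled points passed an adjusted p of 0.05, and the hormone-responsive genes reach from -4.68 (Mbp with NT-3) to 4.95 (Mbp, EGF minus NT-3).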

How the data were processed

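Total RNA of 15 neurosphere samples (6 PDGF, 6 EGF, 3 PDGF with NT-3) was labelled without amplification and hybridised to MOE430A and MOE430B, giving 30 arrays, per the labels' protocols. The deposited values are linear probe set intensities, for which the submitters' processing notes name MAS5 without a version. After trimming 2% from either end, array means ranged from 1500.2 to 1500.77, so the deposited intensities were already scaled, and this scaling was kept.

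The 9 genes and the 6 pathway lists were chosen with earlier results of these data known. Symbols came from the platform annotation, and probe sets with several symbols (936) or none (9160) stayed out. Intensities became log2(signal + the chip's 10th percentile). The 23595 kept probe sets of both chips were fitted together in R 4.3.3 by limma 3.58.1 with an intensity trend in eBayes and no pairing of samples. P-values are two-sided and adjusted by Benjamini and Hochberg within a comparison. A gene was read from MOE430A before MOE430B, then from its brightest probe set. Named list genes are up to 4 a list and comparison with the smallest adjusted p, plus the Dio genes, Slc16a10, Slco1c1, Ncoa1, Ncoa2 and Hdac3, and some items are not reported here. No array pair held identical values (0 pairs), and the number of arrays limits precision. The fit was tested on simulated data. Alternatives covered the pseudocount, filter, scaling, samples fitted, weights, fluidics run, replicate block and single-sample omission. Start windows and their motifs came from RefSeq's GRCm38.p6 table.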

Additional observations from a re-analysis of the deposited data

Results flagged for a closer look

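In 92 groups of 6 samples (the PDGF and EGF groups of each probe set described), 8 had a sample whose gap to the rest exceeded Dixon's 95% limit, where chance alone gives about 1 in 20. On Hr 1435950_at, EGF replicate 4 read 1518 against 2210 to 2690 in the other 5 EGF samples. On Rxrb 1416990_at, EGF replicate 5 read 640 against 1210 to 1627. PDGF replicate 2 stood apart on 3 probe sets of the RXR genes: Rxra 1454773_at was 202 against 599 to 1010, Rxra 1430497_at was 1438 against 97 to 259, and Rxrg 1418782_at was 610 against 52.1 to 138, the last 2 of which were not kept. PDGF replicate 3 read 2293 for Hdac3 against 2877 to 3223. EGF replicate 2 read 2346 for Klf11 against 3533 to 4035, and 35002 for Mbp against 21400 to 25009.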

How the results depend on the processing

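Of 881 recomputed differences of the 14 kept probe sets, 877 moved by less than the spread between replicates, and the other 4 were Ncoa3 1422737_at under the pseudocounts of 1 and of the 25th percentile. That limit is wide for some probe sets. For NT-3 minus PDGF on Rxra 1425762_a_at the spread was 1.19, so values from -2.96 to -1.54 all counted as unmoved. The number of pathway genes called between NT-3 and PDGF went from 14 to 9 when only the 2 groups compared were fitted, with 2058 called over all 13882 genes in place of 2788. Leaving out 1 sample at a time gave 7 to 10 (EGF against PDGF), 10 to 13 (NT-3 against PDGF) and 13 to 20 (EGF against NT-3) called. Klf12, at -0.62 for EGF minus NT-3, read 1.08 (adjusted p = 0.196) with no filter on signal, where another probe set represents it. Of 1102 recomputed values of named list genes, 127 lost and 4 gained their call. The labels tie nothing to the replicate numbers, so samples were not paired. Deviations of same-numbered samples correlated at 0.02 to 0.09 between EGF and PDGF, which share a fluidics run, and at -0.04 to 0.04 for NT-3. With the replicate block the 3 comparisons called 12, 1 and 4 pathway genes, in the order above. Over all 13882 genes that block left 51 calls for NT-3 against PDGF and 469 for EGF against NT-3, and 5 of 6 EGF samples were closest to the PDGF sample of their own number, a hint from the data and not the design. The causes of these shifts were not tested. With 3 NT-3 samples in hybridisation runs of their own, no array setting separates that group from its runs.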
